A study of Mus musculus with 2 samples.

Results

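Cluster 1 is a set of 1186 CD8 T cells from the mouse colon, in a transfer model of colitis, that the authors' fine clustering, which has 12 clusters, placed in its cluster numbered 1. They are 13.9% of the 8562 cells in the deposited table. The members were taken from the deposited annotation, and no expression value of a single gene was used here to pick them. The clustering itself was made from gene expression in these cells, and the sources used here do not give which genes entered it. Differences between cluster 1 and other cells are therefore described here and not tested. Tests were kept for the comparison of genotypes inside the cluster.

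The cells came from the colon lamina propria, the tissue beneath the gut lining, of Rag1 knockout hosts, which make no T or B cells of their own. Each host, aged 8 to 12 weeks at transfer, had received 100000 naive CD4+CD45RBhighCD25- T cells from wildtype spleen and 500000 splenic TCRb+CD8b+CD4- T cells. Cells were collected 6 to 10 weeks after transfer. The CD8 donors were Bcl6fl/fl Cd8aCre or Bcl6fl/fl, so both groups carried floxed Bcl6 alleles, and Cre under Cd8a control was present in the first only. The wildtype CD4 T cells and the Rag1 knockout host were shared by both groups. Cells carried 8 hashtag antibodies, named Cren 1 to 4 and Crep 1 to 4, and were pooled into 1 gene-expression library. The names are read here as without and with Cre, which no source spells out. No source says whether each hashtag was 1 mouse, so p-values measure the spread between hashtags, which may be technical.

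A stem-like or memory-like CD8 T cell keeps the transcription factor TCF1, encoded by Tcf7, and the surface receptor Ly108, encoded by Slamf6. Such cells renew themselves and give rise to effector cells that make granzymes and lose TCF1. BCL6 is a transcriptional repressor that is known to favour the TCF1-high state in T cells. In the colon, many CD8 T cells also take up a tissue-resident state marked by the integrin CD103, encoded by Itgae, and by signs of recent stimulation such as Nr4a1.

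Cluster 1 held 3582232 UMIs (unique molecular identifiers, each standing for 1 captured transcript), with a median of 2866 UMIs and 1249 genes per cell, against 2745 UMIs and 1263 genes in all other cells. At least 1 of the annotation's 2 hashtag calls differed from the hashtag assigned to the cell in 14 of the 1186 cells (1.18%). The CD8 T cell genes Cd3e and Cd8b1 had a UMI in 94.2% and 82.5% of cluster 1 cells. Cd4 had a UMI in 10 cells (0.843%), against 0.990% of all other cells.

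The name stem-like was checked against 10 markers of that state, of which 5 had a UMI in at least 10% of cells of cluster 1 or of all other cells. All 5 had a mean above that of all other cells, with a median fold of 1.39, while the median fold over 3852 such genes was 0.95. Longer lists went both ways: of 10 stem-like transcription factors 6 were above and 4 below (median fold 1.18), and of 9 stem-like and memory surface genes 6 were above and 3 below (1.26). Levels are CPM, in which the UMIs of a gene are divided by all UMIs of the same cells and multiplied by a fixed factor, summed per hashtag and averaged over hashtags. Tcf7 was at 152 ± 30.6 CPM in cluster 1 (SD, n = 8 hashtags) and 105 ± 53.8 CPM in all other cells. It was higher in cluster 1 in 7 of 8 hashtags. By hashtag, Tcf7 in cluster 1 stood at 205, 157, 170.3 and 161 CPM in Cren 1 to 4 and at 161, 122, 110.3 and 128 CPM in Crep 1 to 4. The exception was Cren 4, where all other cells were at 182 CPM.

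Slamf6 averaged 32.0 ± 19.97 CPM in cluster 1 and 23.1 ± 16.03 CPM in all other cells, and was higher in cluster 1 in 6 of 8 hashtags. Lef1, a partner of TCF1, stood at 120.5 ± 21.3 against 89.1 ± 15.5 CPM. Il7r, the receptor for the survival cytokine IL-7, was at 998 ± 240.1 against 759 ± 228 CPM. Lef1 and Il7r were higher in cluster 1 in 8 of 8 hashtags, as were Cd27, at 88.4 against 63.0 CPM, and Klf3, at 112 against 81.6 CPM. The homing receptors of naive and central memory cells were rare: Ccr7 had a UMI in 3.29% of cluster 1 cells against 0.691% of the others.

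The order of clusters put limits on the name. Among the 9 fine clusters with at least 4 hashtags of 20 or more cells, Tcf7 was highest in cluster 5, at 219.7 CPM, followed by cluster 2 at 180.3 CPM and cluster 1 at 152 CPM. Clusters 1 and 2 did not differ beyond their spread, with an SD over hashtags of 30.6 and 65.5 CPM. By mean, Slamf6 in cluster 1 was below clusters 8, 5 and 6, at 60.9, 49.1 and 41.9 CPM. Lef1 and Ccr7 had their highest means in cluster 1, within the spread of cluster 5. The plot of levels by cluster shows this order. By their means, Tcf7 and Slamf6, the genes that define the name, place cluster 1 above most clusters but below cluster 5. For Slamf6 the order varied between hashtags. Its share of cells with a UMI was taken with each cell cut to the same number of UMIs. This share was higher in cluster 1 than in cluster 5 in Cren 2, Cren 3, Crep 2 and Crep 3. It was lower in Cren 1, Cren 4 and Crep 1, and Crep 4 had too few cells in cluster 5. In Cren 3 it was 9.49% against 1.45%, and in Cren 1 9.13% against 14.8%. Cluster 1 is therefore called by its number here.

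**Figure D1:**
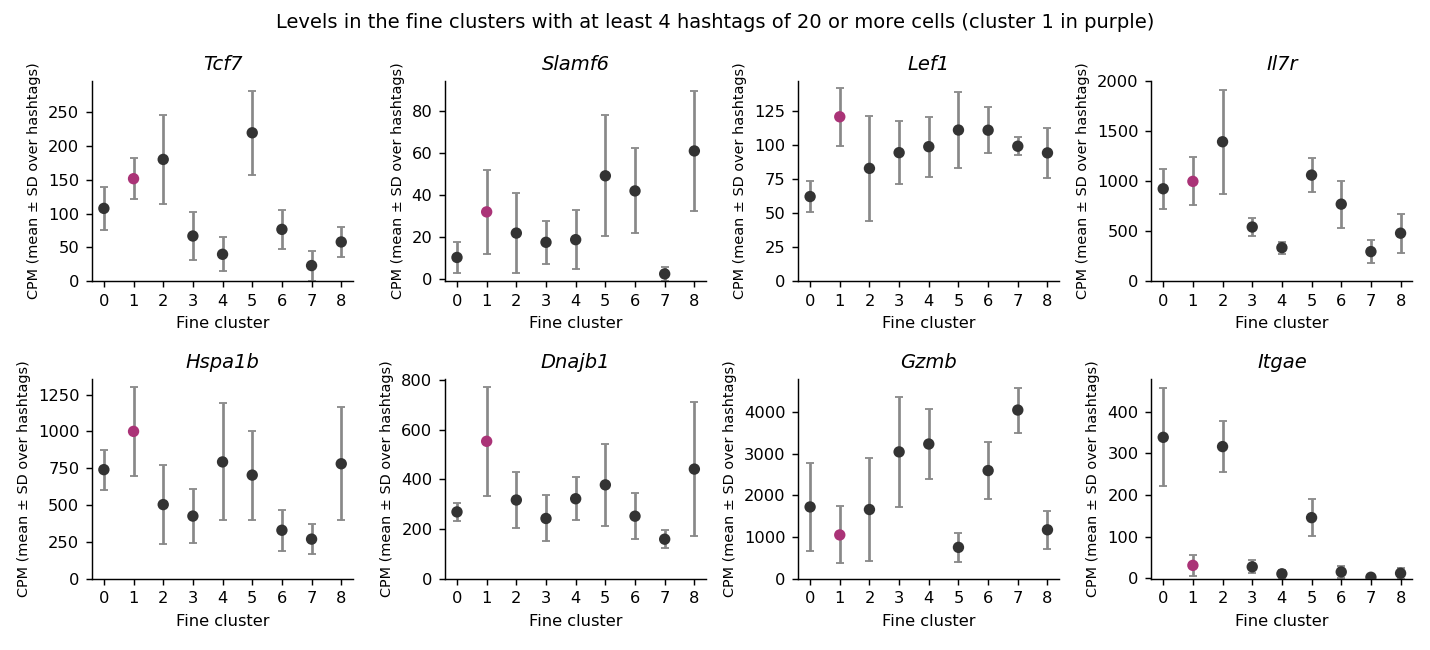
Mean CPM ± SD over hashtags (y axes, linear) in each fine cluster (x axes) for 8 genes, with cluster 1 in purple and the 9 clusters with at least 4 hashtags shown. Tcf7 peaks in cluster 5, Hspa1b and Dnajb1 have their highest mean in cluster 1, and Itgae stands above cluster 1 in clusters 0, 2 and 5.

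By likeness of pattern, the genes closest to Tcf7 over the 12 cluster means, among 7454 genes with at least 20 CPM in a cluster, were F2rl1 (Pearson r 0.889), Aqp3 (0.879), Gbe1 (0.861), Gm49322 (0.855) and Sgms1 (0.854). The clusters share 1 library and the same hashtags. All 5 were at a lower level in cluster 1 than in cluster 5, as Tcf7 was: Aqp3, a water and glycerol channel, stood at 23.4 and 49.9 CPM.

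The genes that led cluster 1 were not the stem-cell markers. By the ratio of mean CPM, the highest was Tbxa2r, the thromboxane receptor, at 35.9 ± 9.16 against 16.4 ± 7.04 CPM (2.19-fold), followed by Sidt1 at 98.7 ± 27.0 against 51.9 ± 19.7 CPM (1.90-fold). Several of the next were heat shock genes, whose products refold damaged proteins. Dnajb1, an HSP40 co-chaperone, was at 553 ± 219 against 296 ± 79.0 CPM (1.87-fold). Hspa1b and Hspa1a, the inducible HSP70 genes, were 1.73-fold and 1.72-fold higher, and Hsph1, an HSP110 chaperone, 1.57-fold higher.

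Of the 10 heat shock genes listed, 9 were above all other cells and 6 of them in every hashtag, with a median fold of 1.25. Hspa1b in cluster 1 was at 715, 634, 1175 and 1577 CPM in Cren 1 to 4 and at 911, 1131, 836 and 1022 CPM in Crep 1 to 4. All other cells ranged from 329 to 883 CPM, so the ranges overlapped across hashtags although cluster 1 was higher within each. The heat shock list as a whole took 1.13% of cluster 1 UMIs in Cren 4, 0.990% in Cren 3 and 0.825 to 0.878% in the other hashtags. It took 0.612 to 0.853% in all other cells and 0.583 to 0.943% in cluster 5, so these ranges overlapped too. Within each hashtag cluster 1 was above both. Against cluster 5, all 10 genes had a higher mean in cluster 1 but only 2 in every hashtag, with a median fold of 1.22. Jun, an immediate-early factor, was also among the leading genes, at 1095 ± 252 against 743 ± 107 CPM. Most early-response genes went the other way: of the 15 listed, Jun among them, 5 were above and 10 below all other cells, with a median fold of 0.91.

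Hspa1a and Hspa1b are near-identical copies on chromosome 17, at 34969359 to 34972156 and 34956429 to 34959238 (GRCm38.p6), so reads may have been split between them by the counting. The bases upstream of 3 of the heat shock genes that led the cluster are shown because those genes were among the leaders of the cluster. Each is the 250 bases before the gene's start, from RefSeq on GRCm38.p6, on the gene's own strand. Capitals mark a heat shock element of 2 units, GAANNTTC or TTCNNGAA, each its own reverse complement.
Hspa1a, chr17:34972157-34972406, minus strand: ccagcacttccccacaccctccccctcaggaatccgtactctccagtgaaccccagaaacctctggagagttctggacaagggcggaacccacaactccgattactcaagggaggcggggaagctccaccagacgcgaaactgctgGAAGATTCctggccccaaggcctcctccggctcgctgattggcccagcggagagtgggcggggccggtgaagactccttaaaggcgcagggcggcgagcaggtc
Hspa1b, chr17:34959239-34959488, minus strand: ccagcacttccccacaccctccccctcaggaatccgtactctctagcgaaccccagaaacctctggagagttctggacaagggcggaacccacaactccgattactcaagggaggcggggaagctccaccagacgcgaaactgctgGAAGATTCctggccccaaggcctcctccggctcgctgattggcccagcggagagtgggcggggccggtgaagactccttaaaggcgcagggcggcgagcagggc
Dnajb1, chr8:83607925-83608174, plus strand: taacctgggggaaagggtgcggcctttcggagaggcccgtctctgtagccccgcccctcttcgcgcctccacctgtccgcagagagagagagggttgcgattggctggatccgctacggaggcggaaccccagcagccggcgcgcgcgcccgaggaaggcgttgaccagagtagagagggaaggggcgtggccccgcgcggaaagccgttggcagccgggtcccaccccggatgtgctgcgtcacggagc

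The Hspa1a and Hspa1b windows were the same at 247 of 250 bases (98.8%), and both held 1 such element, which began 104 bases before the start. The Dnajb1 window held none of these letters. The list matched 7 of its 10 genes in the RefSeq promoter table, and 6 of the 7 had at least 1 window with the element, while 14.5% of 27025 genes did. The longer form, with 3 units in a row on either strand, was in 0.514% of all genes and in 2 of the 7. These were the neighbours Hspe1 and Hspd1, whose windows overlap on opposite strands and share the stretch, so 1 site was counted for both. With the near-identical Hspa1a and Hspa1b windows, the 7 genes are not 7 separate cases to set against the share of all genes. These matches describe letters and not binding.

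The genes lowest in cluster 1 included a residency integrin, a stimulation-induced factor and a granzyme. Itgae was the lowest, at 31.0 ± 24.6 against 147 ± 82.8 CPM (0.21-fold), with a UMI in 6.16% of cluster 1 cells against 21.95% of the others. Nr4a1, an immediate target of T cell receptor signalling, was at 114 ± 39.6 against 339 ± 137 CPM. Gzma, a granzyme, was at 1235 ± 868 against 3466 ± 1676 CPM. All 10 of the lowest genes by this rule, which also held Furin, Fosl2, Kdm6b, Gadd45b, Chn2, Ifitm1 and Ern1, were lower in cluster 1 in 8 of 8 hashtags. The plot of the leading genes gives the ratio in each hashtag.

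**Figure D2:**
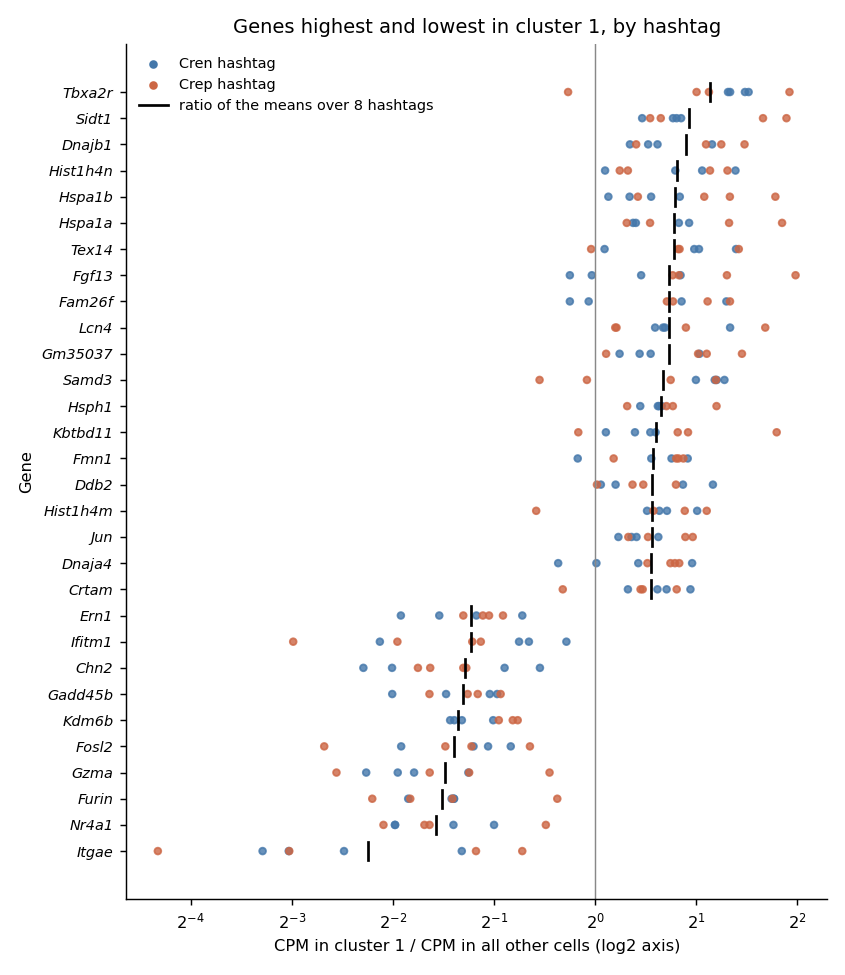
Ratio of CPM in cluster 1 to CPM in all other cells (x axis, log2 scale) for the 20 highest and 10 lowest genes (y axis), with a point for each hashtag and a bar for the ratio of the means. The 10 lowest genes lie left of 1 in every hashtag, and the heat shock genes Dnajb1, Hspa1a, Hspa1b and Hsph1 lie right of 1 in every hashtag.

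The gene lists gave the same picture by counts. Of 17 cytotoxic effector genes with a UMI in at least 10% of cells on a side, 16 were lower in cluster 1, with a median fold of 0.78. Gzmb was at 1051 ± 683 against 2231 ± 1277 CPM and lower in 8 of 8 hashtags, while Gzmk, a granzyme of memory-type cells, was the only member above 1, at 753 ± 136 against 689 ± 322 CPM. Of 8 inhibitory receptor and exhaustion genes, 7 were lower, with a median fold of 0.74; Ctla4 stood at 107 ± 37.8 against 183 ± 45.3 CPM. All 8 tissue residency genes were lower, with a median fold of 0.81. Over all 3852 genes, 1267 were higher and 2585 lower, so a majority below 1 is the background.

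Cluster 5 was the nearest neighbour of cluster 1 in the coarser clustering of the annotation. Coarse cluster 2 held 84.2% of cluster 1 and 85.2% of cluster 5, and these made up 58.7% and 37.2% of its cells. Cluster 5 had 743 cells, and Crep 4 gave it fewer than 20, so it is described over 7 hashtags. The means of cluster 1 set beside it, and the folds, still cover all 8 hashtags of cluster 1. Of 17 cytotoxic effector genes, 10 were higher in cluster 1 and 7 lower, among them Gzma at 1235 against 1765 CPM. Eomes, a factor of memory and killer cells, was at 72.2 ± 20.3 CPM in cluster 1 and 11.9 ± 9.13 CPM in cluster 5 (6.06-fold). Gzmk was at 753 ± 136 against 254 ± 100.02 CPM, and the chemokine gene Ccl4 at 1359 ± 282 against 546 ± 128 CPM. Klrg1, a receptor of differentiated killer cells, was at 93.8 ± 46.0 against 30.1 ± 18.1 CPM. All of these were higher in cluster 1 in 7 of 7 hashtags, as were Samd3, Tbxa2r, Ccl3, Lmo1, Il10ra and Tex14.

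Cluster 5 was above cluster 1 for Tcf7 in 7 of 7 hashtags, with 219.7 ± 62.6 CPM. Of 9 tissue residency genes, 6 were lower in cluster 1 than in cluster 5, where 2363 of all 4004 genes were. Itgae was at 146 ± 44.9 CPM there, and Ahr, a receptor for diet-derived ligands, at 68.0 ± 25.6 CPM against 11.4 ± 6.93 CPM in cluster 1. Tmem176b, Ifitm1, Tnfrsf25, Tmem176a, Ggt1, Cd79b, Ifitm2, Nebl and Nsdhl completed the 10 genes lowest in cluster 1 by this comparison, at ratios of 0.09 to 0.20. S1pr1, which guides cells out of tissue, was at 87.5 CPM in cluster 1 and 196 CPM in cluster 5. Of 10 stem-like transcription factors measured in either, 8 were lower in cluster 1 than in cluster 5, with a median fold of 0.83 against 0.96 over all 4004 genes.

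Within cluster 1, some cells held UMIs of both Tcf7 and Gzmb. After thinning each cell to 2000 UMIs, 941 cells remained, of which 234 had a Tcf7 UMI. In Cren, Gzmb had a UMI in 59 of 178 cells with a Tcf7 UMI (33.1%, 95% Wilson interval 26.7 to 40.4%) and in 37.1% of 482 cells without one (32.9 to 41.5%). In Crep, the shares were 39 of 56 cells (69.6%, 56.7 to 80.1%) and 74.2% of 225 cells (68.1 to 79.5%). Within each group these intervals overlapped. For Gzma the shares in Cren were 24.2% (18.5 to 30.9%) and 36.3% (32.1 to 40.7%), with no overlap of the intervals. In Crep they were 42.9% (30.8 to 55.9%) and 56.0% (49.5 to 62.3%), with overlap. Cells were pooled over the hashtags of a group, and the intervals cover counting error only. Over all thinned cluster 1 cells, the Gzma share ran from 20.7% in Cren 4 to 47.1% in Cren 1. The intervals leave out this spread between hashtags and so do not test the contrast. The share that free RNA gives was not measured, so a cell with both UMIs is not shown to express both genes, and cells with no UMI may still express the gene.

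Cluster 1 made up a smaller part of the Crep cells than of the Cren cells, but the hashtags overlapped. Its share was 19.2%, 9.23%, 15.98% and 32.4% of the cells in Cren 1 to 4, and 5.50%, 5.59%, 13.99% and 10.5% in Crep 1 to 4. The means were 19.2 ± 9.75% and 8.90 ± 4.12% (SD, n = 4 hashtags each), a difference that an exact two-sided permutation test did not separate from the spread between hashtags (p = 0.0857, where 0.0286 is the smallest p that 4 against 4 allows). Crep 1 and Crep 2 lay below all Cren hashtags, and Crep 3 and Crep 4 above Cren 2. Without Cren 2 all 4 Crep hashtags were below all Cren hashtags (exact permutation p = 0.0571). Without Cren 4 the difference shrank from -10.3 to -5.89 percentage points (exact permutation p = 0.171), and leaving out any other hashtag gave p from 0.114 to 0.171. None of the 10 leading genes of cluster 1 passed between the groups over all cells, where their log2 changes ran from -0.79 for Hspa1a to 0.71 for Lcn4. A smaller share cannot be told apart from more cells of the other clusters.

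**Figure D3:**
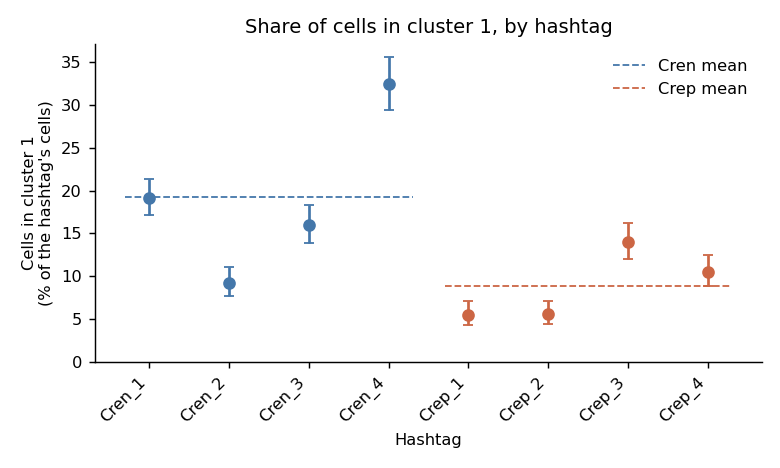
Percent of each hashtag's cells that lie in cluster 1 (y axis) for the 4 Cren and 4 Crep hashtags (x axis), with 95% Wilson intervals and dashed lines at the group means. The Cren hashtags spread from 9.23% to 32.4% and the Crep hashtags from 5.50% to 13.99%.

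Depth and quality inside the cluster did not pass a test between the groups. The smallest exact p that 4 against 4 allows is 0.0286, so 1 measure alone could not pass after adjustment over the 4 measures. Likeness of the groups is therefore not shown. The median UMI count per cell averaged 2917 over the Crep hashtags and 2854 over the Cren hashtags (p = 0.743 by an exact permutation test). The median mitochondrial share was 0.688% over Crep and 0.747% over Cren hashtags (p = 0.0857 by the same exact test, adjusted 0.343). The median ribosomal share was 23.4% over Crep and 25.1% over Cren hashtags (p = 0.171 by the same exact test, adjusted 0.343), with 3 Crep hashtags below all Cren hashtags. The share of cluster 1 cells that the coarse clustering put in its cluster 2 was 86.8% in Cren and 78.5% in Crep, with cells pooled over hashtags. By hashtag it was 89.2, 62.7, 89.7 and 91.4% in Cren 1 to 4 and 64.3, 78.7, 81.4 and 81.8% in Crep 1 to 4. The groups overlapped, as Cren 2 lay below all Crep hashtags. The summed level of 3 CD4 T cell markers ran from 0 to 3.78 CPM in Cren and from 5.09 to 17.9 CPM in Crep, with Cd4 itself in 10 cells. Its part in the results below was not tested.

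Bcl6, the targeted gene, was counted in every hashtag of cluster 1. It stood at 15.1, 6.96, 16.8 and 16.7 CPM in Cren 1 to 4 and at 29.8, 35.7, 21.2 and 20.7 CPM in Crep 1 to 4, from 2 to 14 UMIs each, too few for the fit across genes. In all other cells Bcl6 was higher in Crep (log2 fold change 0.73, SE 0.15, adjusted p = 0.0389, edgeR's quasi-likelihood test), at 15.3 to 22.4 CPM in Cren and 24.7 to 32.5 CPM in Crep. Counts from the 5′ end need not cover the deleted part, whose exons are not given in the sources used here. These values therefore do not check the genotype.

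The transcriptome of cluster 1 differed between Crep and Cren at few genes. Of 4623 genes tested on sums per hashtag, 5 were higher in Crep (0.108%) and 3 were lower (0.0649%) at an adjusted p under 0.05, and 298 had an unadjusted p under 0.05. Values in the next paragraphs are CPM scaled by TMM, edgeR's correction for composition.

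Glrx, glutaredoxin, which reduces oxidised protein thiols, was higher in Crep. It was at 132, 139.8, 183 and 119 in Cren and at 243, 252, 259.9 and 224 in Crep, with no overlap (log2 fold change 0.79, SE 0.15, adjusted p = 0.00559, edgeR). The call was lost without Crep 3 (adjusted p = 0.0727). Glrx also passed in all other cells (log2 0.76, SE 0.13, adjusted p = 0.0331), and the difference between these effects was 0.05 (SE 0.14, adjusted p = 0.997).

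Hist1h1e, a linker histone, was 152 ± 35.7 in Cren and 240.1 ± 30.3 in Crep (log2 0.69, SE 0.16, adjusted p = 0.0367). All 4 Crep hashtags lay above all Cren hashtags. Leaving out Cren 1, Cren 4 or any Crep hashtag ended the call, with adjusted p of 0.155, 0.259, 0.105, 0.295, 0.0987 and 0.0845. In all other cells Hist1h1e had a log2 change of 0.69 (SE 0.16, adjusted p = 0.0911, edgeR). The difference between these effects was -0.042 (SE 0.15, adjusted p = 0.997). Gm21887 was 47.3 ± 9.69 in Cren and 128 ± 63.7 in Crep (log2 1.41, adjusted p = 0.0188). Gm21887 also passed in all other cells (log2 0.71, SE 0.13, adjusted p = 0.0252, edgeR). Its cluster 1 Crep hashtags stood at 56.1, 137, 109.8 and 209 and overlapped Cren at the lowest. The call was lost without Cren 1, Cren 3, Crep 2, Crep 3 or Crep 4, at adjusted p of 0.0708, 0.0603, 0.162, 0.0685 and 0.0583. The gene 1500009L16Rik was lower in level, at 10.8 ± 5.52 and 38.7 ± 11.2 (log2 1.94, adjusted p = 0.0372), and the call was lost without Crep 1, Crep 2 or Crep 4, at adjusted p of 0.0647, 0.278 and 0.0743. It rested on 21 UMIs in Cren and 38 in Crep. Only 11 alternatives tested it, where Glrx and Hist1h1e had 18, and 7 of them kept the call.

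Trav12-2, a variable segment of the T cell receptor alpha chain, had the largest change among the 8 genes. It was at 21.4, 66.2, 26.1 and 20.9 in Cren and at 131, 104, 170.3 and 127 in Crep (log2 2.28, SE 0.26, adjusted p = 1.22e-06). In all other cells the same segment was at 7.63, 161, 82.5 and 6.73 in Cren and at 93.0, 47.4, 106 and 25.1 in Crep, with the groups overlapping and a log2 change of 0.05. The difference between these effects was 1.603 (SE 0.77, adjusted p = 0.908, edgeR) and did not pass. Segment counts follow which clones a hashtag holds, and near-identical copies of the segment make their counts uncertain.

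Slc15a2, a peptide transporter, was lower in Crep. It was at 263, 390.0, 275 and 340.4 in Cren and at 199, 219, 170.3 and 175 in Crep, with no overlap (log2 -0.74, SE 0.14, adjusted p = 0.00670). The call was lost without Crep 3 or Crep 4, at adjusted p of 0.131 and 0.0567. Tagap, an activation-induced GTPase-activating protein of T cells, was 228 ± 40.7 in Cren and 132 ± 20.6 in Crep (log2 -0.79, SE 0.16, adjusted p = 0.00764), and lost its call without Crep 2 or Crep 3, at 0.0866 and 0.0727. Jakmip1, a microtubule-binding protein of neurons and lymphocytes, was 105 ± 18.7 in Cren and 53.3 ± 8.23 in Crep (log2 -0.95, SE 0.21, adjusted p = 0.0314). Its call was lost without Cren 4 or any 1 Crep hashtag, at adjusted p of 0.259, 0.105, 0.168, 0.124 and 0.0743. For each of these 3 genes all Crep hashtags were below all Cren hashtags. None of the 3 passed in all other cells. Slc15a2 had a log2 change of -0.62 there (adjusted p = 0.0976), and the difference between its effects was -0.12 (adjusted p = 0.997). Tagap had a log2 change of -0.15 and Jakmip1 of -0.12, and the differences between the effects were -0.64 for Tagap (adjusted p = 0.119) and -0.86 for Jakmip1 (adjusted p = 0.175).

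**Figure D4:**
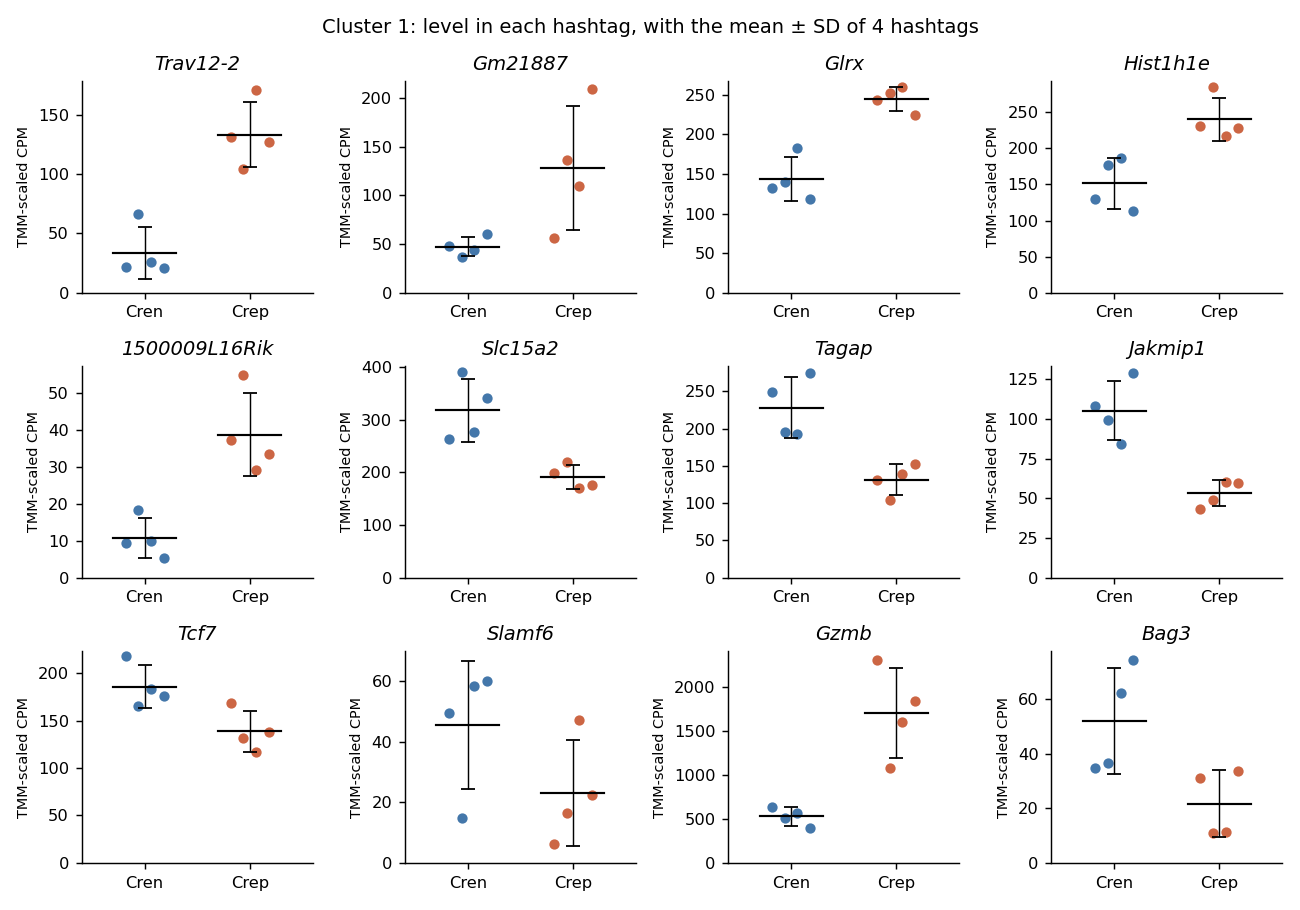
TMM-scaled CPM in cluster 1 (y axes, linear) in each Cren and Crep hashtag (points, x axes), with the mean and SD of 4 hashtags. The 8 genes that passed come first, followed by Tcf7, Slamf6, Gzmb and Bag3, which did not, and the Crep points of Gzmb lie above all Cren points.

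Gzmb, granzyme B, had a large change that did not pass. It was at 642, 515, 565 and 393 in Cren and at 2312, 1079, 1598 and 1848 in Crep, with no overlap (log2 1.69, SE 0.26, adjusted p = 0.160, edgeR). It passed in 6 of 18 alternatives, and in the other 12 the adjusted p ran up to 0.401. Those 6 were the fits without Crep 1 (adjusted p = 0.0170), without Crep 2 (9.31e-08), with DESeq2 (6.33e-07), with equal cell numbers per hashtag (0.00255), with no filter on low counts (5.58e-14) and, as an alternative added after seeing the data, in the cells of coarse cluster 2 alone (2.79e-05). After thinning, 70.9 ± 6.83% of Crep cells and 37.7 ± 7.64% of Cren cells had a Gzmb UMI, again without overlap (exact permutation p = 0.0286, the smallest possible, and 0.214 adjusted over 15 genes). Without thinning the Crep share was 76.7%. The log2 change in all other cells was 1.49 (SE 0.42, adjusted p = 0.260), and the difference between these effects was 0.10 (SE 0.30, adjusted p = 0.997).

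Tcf7 and Slamf6, which give the cluster its name, did not pass either. Tcf7 was at 218, 166, 183 and 176 in Cren and at 168, 131, 117 and 138 in Crep (log2 -0.48, SE 0.16, adjusted p = 0.411), with Crep 1 above the lowest Cren hashtag. The share of thinned cells with a Tcf7 UMI was 27.2 ± 1.97% in Cren and 19.8 ± 2.59% in Crep, without overlap (p = 0.0286 by an exact permutation test, adjusted 0.214). In all other cells the log2 change of Tcf7 was -1.29 (SE 0.32, adjusted p = 0.183), and in cluster 5 it fell, with -0.85 (SE 0.18, adjusted p = 0.00248). The difference between cluster 1 and all other cells was 0.85 (SE 0.32, adjusted p = 0.8287 with edgeR), and between cluster 1 and cluster 5 it was 0.34 (SE 0.22, adjusted p = 0.939). Slamf6 was 45.6 ± 21.1 in Cren and 23.0 ± 17.4 in Crep (adjusted p = 0.755), with overlap.

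No gene of the 25 lists passed, so the lists are given by their medians. Of 18 cytotoxic effector genes tested, 15 had a positive log2 change, with a median of 0.25, of 10 heat shock genes all were negative, with a median of -0.17, and over all 4623 genes 2279 were positive with a median of -0.0042. The heat shock share of UMIs was highest in Cren 4 and Cren 3, while Cren 1 and Cren 2, at 0.825% and 0.849%, lay below or within the Crep range of 0.832 to 0.878%. Of 8 inhibitory receptor and exhaustion genes, 5 were negative with a median of -0.46, among them Ctla4 (-0.64, adjusted p = 0.411), an inhibitory receptor. Stem-like transcription factors had 7 of 10 negative and a median of -0.14, and stem-like surface genes 7 of 9 and -0.20. Of the 8 candidate BCL6-repressed genes, 7 were positive with a median of 0.24, and Gzmb is a member of this list as well as of the cytotoxic list. Each list named here had a median of the same sign in cluster 5 and in all other cells, so the signs were not particular to cluster 1. In cluster 5 and in all other cells the medians were 0.45 and 0.51 for cytotoxic genes and -0.39 and -0.40 for heat shock genes. For the candidate BCL6-repressed genes they were 0.13 and 0.59. Within cluster 1, the gene next in order of p was Rcn3, a calcium-binding protein of the secretory pathway, at 20.4 ± 10.2 in Cren and 54.8 ± 15.5 in Crep (log2 1.23, adjusted p = 0.129, edgeR). Gzmb came after it, and the next lower genes were Bag3, a co-chaperone, with -1.42 (adjusted p = 0.160), and Vps37b, of the endosomal sorting machinery, with -0.51 (adjusted p = 0.183).

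Cluster 5 showed more genes past the threshold from fewer cells. Of 4044 genes, 21 were higher in Crep (0.519%) and 27 lower (0.668%), over 4 Cren and 3 Crep hashtags. In all other cells it was 27 higher (0.285%) and 26 lower (0.274%) of 9479. These sums share their hashtags, so their values are set side by side. Klrc1, an inhibitory killer cell receptor, rose by 0.89 on the log2 scale in cluster 5 (SE 0.15, adjusted p = 0.000225), with 0.0044 in cluster 1 (SE 0.13). Gzmk rose by 0.99 (SE 0.18) in cluster 5, with 0.03 (SE 0.14) in cluster 1. For Itga1, an integrin of tissue-resident cells, the values were 1.27 and 0.39. Among the lower genes, Icos, a costimulatory receptor, had -1.09 in cluster 5 and -0.23 in cluster 1. For Tgif1, a repressor of TGF-beta targets, the values were -1.29 and -0.72. The gene 1500009L16Rik passed in both clusters, with 1.30 in cluster 5, where the call was lost without Crep 2 (adjusted p = 0.239). These genes were chosen because they passed in cluster 5. The tested difference between cluster 1 and cluster 5 did not pass for Gzmk (-0.88, adjusted p = 0.848), Itga1 (-0.63, 0.848), Icos (0.91, 0.643) or Tgif1 (0.31, 0.980) with edgeR.

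**Figure D5:**
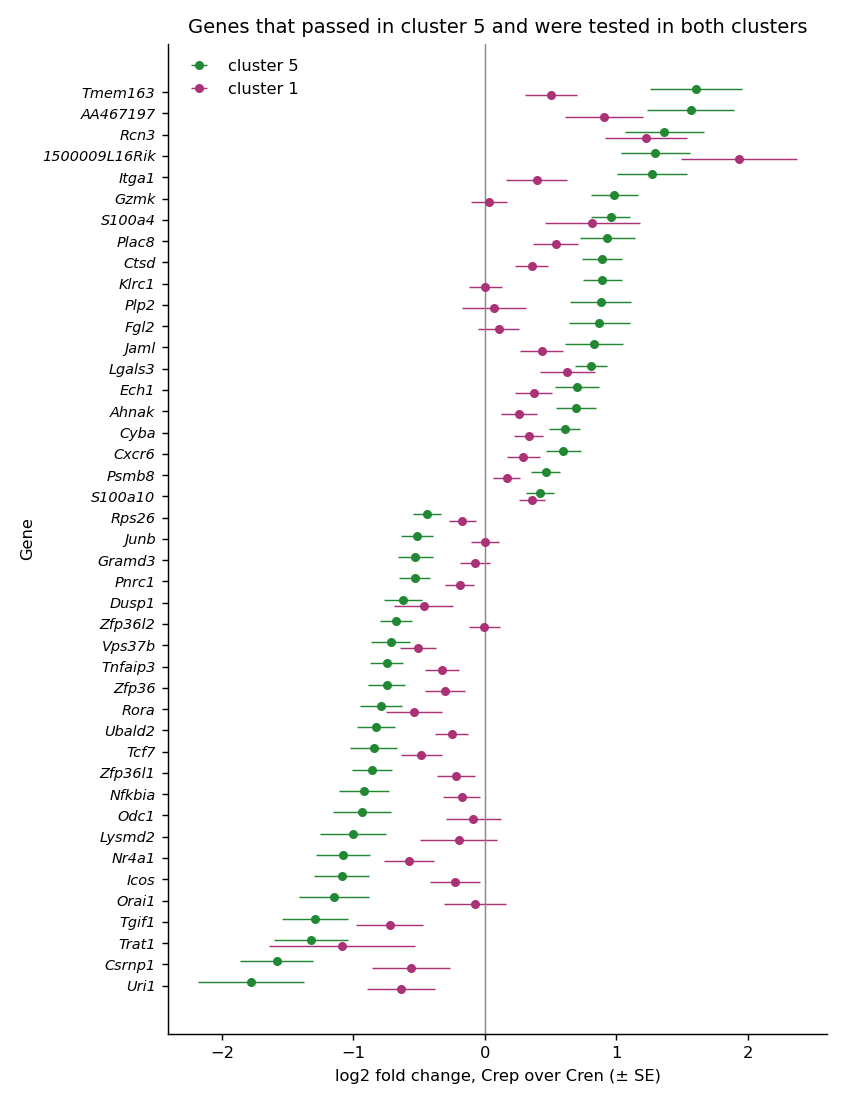
Log2 fold change of Crep over Cren ± SE (x axis) in cluster 5 (green) and cluster 1 (purple) for genes (y axis) that passed in cluster 5 and were tested in both. Klrc1, Gzmk and Zfp36l2 lie near 0 in cluster 1, and 1500009L16Rik lies above 1 in both.

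The difference of the Crep effect between clusters was tested directly, with each hashtag as a block. Against all other cells, 0 of 8622 genes had a more positive effect in cluster 1 (0%) and 3 a more negative one (0.0348%), and 504 had an unadjusted p under 0.05. For Klrc1 the difference was -0.56 (SE 0.11, adjusted p = 0.0188). Klrc1 was at 762, 541, 744 and 493 in Cren and 623, 553, 683 and 679 in Crep within cluster 1, and at 401 to 616 in Cren and 592 to 1008 in Crep among all other cells. The call was lost without Crep 2 or Crep 4, at 0.0792 and 0.134. For Klra3, a Ly49 receptor of a multigene family, the difference was -3.19 (SE 0.62, adjusted p = 0.0188), from 1 to 11 UMIs per hashtag in cluster 1. All other cells had 2.78 to 10.0 CPM of Klra3 in Cren and 26.8 to 89.1 CPM in Crep. It was lost without Cren 2, Cren 3, Crep 2 or Crep 4, at 0.0571, 0.125, 0.0792 and 0.182. The third was the receptor segment Trav19, with -3.51 (SE 0.73, adjusted p = 0.0193), where Crep 4 alone had 590.5 CPM among all other cells. It was lost without Cren 1, Cren 3, Crep 2 or Crep 4, at 0.379, 0.0567, 0.0792 and 0.0831. Klra3 and Trav19 did not pass the filter on low counts within cluster 1 and entered this test through the other cells, where they were high in Crep. In all other cells neither passed, with log2 changes of 2.74 (adjusted p = 0.115, edgeR) and 5.52 (adjusted p = 0.139, edgeR). Their differences therefore rest on the other cells and show no effect in cluster 1.

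Against cluster 5, 3 of 4975 genes had a more positive effect in cluster 1 (0.0603%) and 1 a more negative one (0.0201%). Klrc1 was the negative one, at -0.95 (SE 0.16, adjusted p = 0.000568), lost without Crep 3 (0.273). In cluster 5 it stood at 299, 267, 395 and 316 in Cren and at 607, 441 and 711 in Crep, so the Cren cells of cluster 1 were above the Cren cells of cluster 5. Zfp36l2, which binds AU-rich messages and hastens their decay, had a difference of 0.62 (SE 0.13, adjusted p = 0.0262). It was lower in all 3 Crep hashtags of cluster 5, at 788, 727 and 669.6 against 941 to 1335 in Cren, and overlapped in cluster 1. Leaving out Cren 1, Cren 4, Crep 1 or Crep 3 ended the call, at 0.0818, 0.124, 0.283 and 0.706. Bhlhe40, a factor of tissue-resident and cytokine-making T cells, had a difference of 0.77 (SE 0.17, adjusted p = 0.0431), lost without Cren 1, Cren 3, Cren 4, Crep 1 or Crep 3, at 0.390, 0.0636, 0.124, 0.479 and 0.646. Cmss1 differed by 0.34 (SE 0.07, adjusted p = 0.0431), lost without Cren 2, Cren 3, Crep 1, Crep 2 or Crep 3, at 0.128, 0.0793, 0.0841, 0.269 and 0.490. Its annotation overlaps that of Filip1l, and counts of overlapping genes cannot be told apart without knowing how strand was used.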

How the data were processed

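Per the labels, colon CD8 T cells were profiled with a 10x Genomics 5′ kit with feature barcoding. The deposited table held UMI counts by the authors, 12798 genes by 8562 cells, and the deposited annotation gave hashtag, condition and cluster. The submitters' processing notes list Seurat 4.3.0, the build mm10, Cell Ranger 7.0.0 and also bcl2fastq 2.20.0.422, and give none of them a role. Every cell had at least 500 genes. No doublet caller was run: cells that 1 classifier called as 2 hashtags numbered 4 in cluster 1 and were kept.

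Counts were summed per hashtag (at least 20 cells) and tested with edgeR 4.0.16 in R 4.3.3: TMM, filterByExpr, robust quasi-likelihood fit, Benjamini-Hochberg adjustment over all genes tested. Differences of effects used an interaction term with the hashtag as block. The scripts were tested on simulated data. Alternatives used limma 3.58.1 and DESeq2 1.42.0. Shares with a UMI were computed after thinning to 2000 UMIs, which left out shallower cells.

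Named genes were the 20 highest and 10 lowest by ratio of mean CPM (10 and 10 against cluster 5), with a UMI in at least 10% of cells of the higher side and no receptor segment, mitochondrial or ribosomal gene. Between the groups they were those past an adjusted p of 0.05 with a mean log2 CPM of at least 5, filled up to 5 a direction by p, and list members as examples. 1500009L16Rik, which passed below that level, and Rcn3 were named after their values were seen. The members and gene lists were chosen with earlier results of these data known. Promoters came from RefSeq on GRCm38.p6.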

Additional observations from a re-analysis of the deposited data

Results flagged for a closer look

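With 118 groups of 4 hashtags examined, 8 held a hashtag far from the other 3, and chance gives about 1 in 20. In cluster 1, Trav12-2 stood at 66.2 TMM-scaled CPM in Cren 2 against 20.9 to 26.1 in the other Cren hashtags, and Nr4a1 at 192 CPM in Cren 2 against 116 to 123. Jun stood at 1474 CPM in Cren 4 against 887 to 964. Itgae and Ifitm1 stood at 76.4 and 194 CPM in Crep 2, against 5.96 to 14.8 and 59.6 to 80.6 in the other Crep hashtags. Tbxa2r was at 50.9 CPM in Crep 3 against 27.6 to 30.6. After thinning, Ccr7 had a UMI in 5.26% of Crep 4 cells, against 0 to 0.862%, and Ccl5 in 99.1% of Crep 3 cells, against 100% in each of the others.

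The tested difference of the Crep effect between cluster 1 and all other cells was -0.56 for Klrc1, -3.19 for Klra3 and -3.51 for Trav19 on the log2 scale. Between cluster 1 and cluster 5 it was -0.95 for Klrc1, 0.62 for Zfp36l2, 0.34 for Cmss1 and 0.77 for Bhlhe40. Klra3 and Trav19 did not pass the filter on low counts within cluster 1, so their differences rest on the other cells.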

How the results depend on the processing

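The 8 genes called in cluster 1 became 25 with no filter on low counts, 5 with DESeq2, 5 with equal cell numbers and 2 to 13 when 1 hashtag was left out (13 without Cren 1, 4 without Crep 2, 2 without Crep 3, 4 without Crep 4). In cells with a Tcf7 or Slamf6 UMI, where 2 Crep hashtags remained, 0 passed with edgeR (166 at an unadjusted p under 0.05), limma-voom or DESeq2. Deviations of same-numbered hashtags from their group means had r of -0.150, 0.010, 0.091 and 0.273. Those of differently numbered hashtags had r from -0.309 to 0.248. So few values cannot show whether the numbers pair the hashtags, and the replicate block gave 21 calls. The 3 differences against all other cells became 28 with no filter and 0 to 12 with 1 hashtag left out, 0 without Crep 2 (496 at an unadjusted p under 0.05, and 2 calls by limma-voom). The 4 against cluster 5 became 2 with DESeq2's size factors, 17 with no filter and 0 to 8 with 1 hashtag left out, 0 without Crep 3 (262 at an unadjusted p under 0.05, and 0 calls by limma-voom). Cluster 5 gave 92 calls with no filter and 20 to 115 with 1 hashtag left out (115 without Cren 3, 25 without Crep 2, 20 without Crep 3), and all other cells 81 with no filter. The difference in the share of cells ran from -13.6 to -5.89 percentage points with 1 hashtag left out. For Zfp36l2 the difference against all other cells, 0.037, turned to -0.00099 with no filter and ran from -0.0024 without Crep 3 to 0.060 without Crep 2, and for Ccl5 the Crep minus Cren share turned to -0.0207 points at 1500 UMIs. Of 221 other values for single genes in cluster 1, 170 kept their direction and side of the threshold, 42 lost it and 9 gained it. Many of those kept belong to Tcf7, Slamf6, Gzmb, Bag3 and Vps37b, which had no call to lose. Among the 8 called genes, the call held in 16 of 16 alternatives for Trav12-2, 16 of 18 for Glrx and 14 of 18 for Slc15a2. It held in 13 of 18 for Tagap, 10 of 18 for Gm21887, 9 of 18 for Hist1h1e, 8 of 18 for Jakmip1 and 7 of 11 for 1500009L16Rik. The analysis of coarse cluster 2 alone, with 7 calls, and the leave-one-out fits in cluster 5 were added after seeing the data. The cause of these changes was not tested.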
